A study of Homo sapiens and Homo sapiens
Mus with 12 samples.

Results

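The comparison of cultured cells that carried the hairpin sh#1 with cells that carried a control hairpin used 6 of the 12 sample entries of the series. UM-UC-3 is a bladder cancer cell line that the study treats as an advanced cancer line. The shCtrl group (libraries 1 to 3, labelled WT for treatment) carried a non-silencing hairpin, and the sh#1 group (libraries 1 to 3, labelled CDH11 knockdown) a hairpin against CDH11. Both hairpins came on a lentivirus that also encodes green fluorescent protein, and the infected cells of both groups were sorted for it, so each group is a sorted population with 1 hairpin sequence. All 6 libraries were made from cells grown in plates for 24 h before RNA extraction. The libraries were placed in these groups by their titles and column names. The 3 cultured libraries of the other hairpin, sh#2, entered the model fit for the estimate of the spread and are compared with sh#1 only near the end.

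CDH11 encodes cadherin-11, a calcium-dependent adhesion protein of mesenchymal cells that binds its own kind on neighbouring cells and is tied to the cytoskeleton through catenins. A short hairpin RNA is cut in the cell to a short guide strand, which an Argonaute protein uses to find and cleave messenger RNA that pairs with it. The bases near the 5′ end of the guide, called the seed, can also pair with 3′ UTRs of other genes, in the way a microRNA does. The sh#1 site is shown because the design rests on it. The search of the genome found it at chr16:64992957-64992975 of hg38, on the minus strand, within coding bases of exon 5 of the 13 exons of CDH11 (ENSG00000140937), at nt 1064 to 1082 of a transcript of 6722 nt. It is printed 5′ to 3′, as the DNA letters of the messenger RNA strand and as the guide strand that pairs with it, with the seed (guide bases 2 to 8) and its match in capitals.
sh#1 target in CDH11: gccaagttagtGTACAGTa
sh#1 guide strand: tACTGTACactaacttggc
This target of 19 bases had 1 perfect match on the main chromosomes. None of the 2545 mature human microRNAs in the RefSeq table had the seed of this guide.

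Few reads fell on CDH11 itself, the gene that sh#1 targets. Its counts were 2, 4 and 4 in shCtrl and 0, 0 and 1 in sh#1. The counts of the groups did not overlap, but with so few reads no fold change is given, and a library with 0 counts could hold up to 3 by counting error alone. The label of the knockdown therefore has only this thin check in these counts.

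Between 2273182 and 2777019 reads were counted on genes in each of the 6 libraries. Pearson correlations of log values were between 0.976 and 0.979 within a group and between 0.954 and 0.958 across the groups. No library stood apart from the others of its group. The labels do not say that the libraries of a group came from separate cultures, so the p-values measure the spread between these libraries, which may be technical. The fibroblast marker list of 8 genes summed to 51 to 67 counts in shCtrl and 25 to 42 in sh#1. Most of these counts fell on THY1, with 45, 38 and 51 in shCtrl and 32, 18 and 37 in sh#1. Summed over the libraries of a group, DCN and LUM each had 0 counts in shCtrl and 1 in sh#1, PDGFRB 2 and 1, and FAP 1 and 2. In the same order ACTA2 had 26 and 6, COL1A1 7 and 4, and COL3A1 4 and 1. The endothelial and immune lists summed to 0 to 1 counts in every library, with 4 of 6 genes of each at 0 in all 6 libraries. Among markers of the line itself, VIM (vimentin) was present in every library, at 5436 to 6060 counts in shCtrl and 5189 to 6981 in sh#1, and so were the keratins of simple epithelia KRT8 and KRT18. KRT8 had 266 to 345 counts in shCtrl and 282 to 333 in sh#1, and KRT18 had 318 to 340 and 449 to 539 and was called higher (log2 0.54 ± 0.08, adjusted p = 2.68e-07). The epithelial markers EPCAM, CDH1 and KRT19 were too low to be tested.

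Of 9859 genes that passed the low-count filter, 1162 were higher (11.8%) and 1047 lower (10.6%) in sh#1 than in shCtrl cells at an adjusted p below 0.05 (edgeR's quasi-likelihood test, Benjamini-Hochberg adjusted). A change of more than 1 on the log2 scale was seen in 187 of the higher genes (1.9% of those tested) and 160 of the lower (1.62%). The levels of the 3 sh#1 libraries were all above the 3 shCtrl libraries in 1761 genes (17.9%) and all below in 1755 (17.8%). Counts of calls fell by more than 1.5 times with DESeq2, to 692 higher and 474 lower genes. The largest changes were rises. A log2 fold change over 2 was reached by 39 higher genes, whereas only 5 lower genes were under -2. The chance of a call moved with the depth: 35.3% of genes that averaged 100 counts or more were called, and 10.5% of those with under 20.

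**Figure D1:**
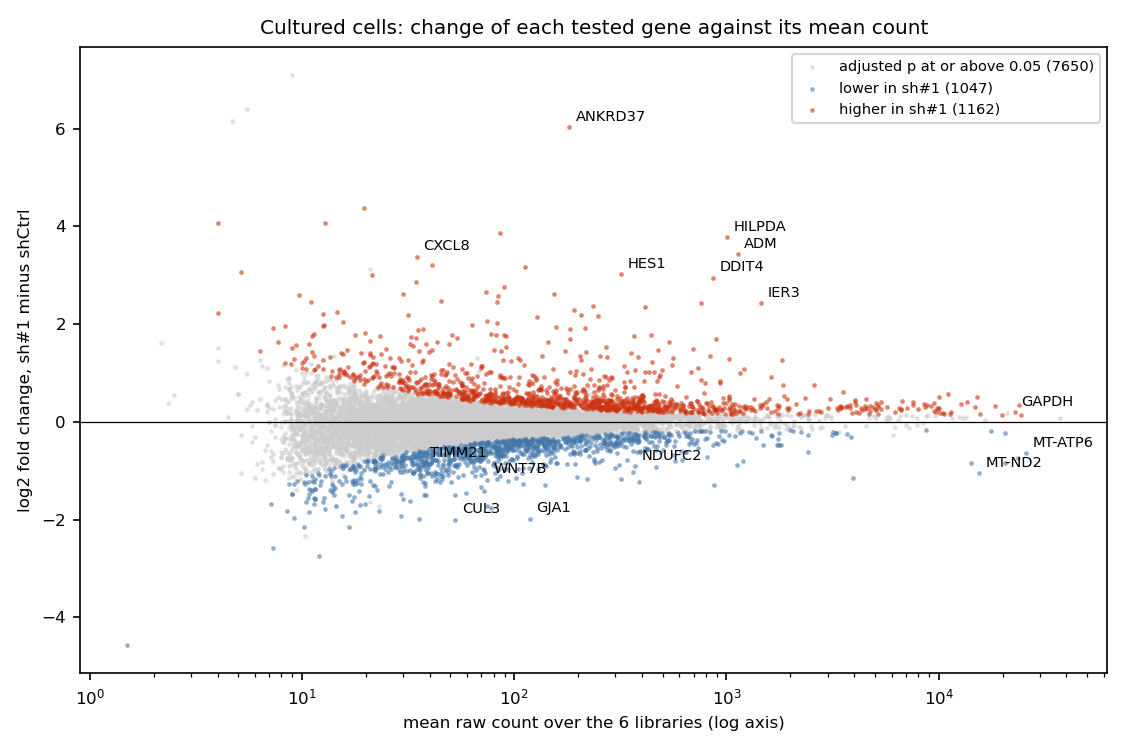
Log2 fold change of sh#1 minus shCtrl for each of the 9859 tested genes (y axis) against its mean raw count over the 6 libraries (x axis, log scale). Red points are the 1162 higher genes, blue points the 1047 lower genes and grey points those with an adjusted p at or above 0.05; ANKRD37, HILPDA and ADM stand highest among the labelled genes, and MT-ND2 is among the lower genes with the most counts.

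The hypoxia genes held most of the largest rises. Cells sense oxygen through prolyl hydroxylases of the EGLN family, which mark the alpha subunits of hypoxia-inducible factor (HIF) for destruction. When oxygen is low, HIF accumulates and switches on genes for sugar uptake, vessel growth and mitochondrial removal, and also genes of its own negative feedback. Of 42 listed genes 37 were tested, and 30 were higher (81.1%, against 11.8% of all tested genes) and 1 lower. Their median log2 fold change was 0.97, against -0.01 for all tested genes. The number called higher was between 25 and 33 under the alternatives.

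ANKRD37, a target gene of HIF with ankyrin repeats, had the largest rise among well-counted genes. It had 2, 2 and 12 counts in shCtrl and 324, 340 and 409 in sh#1. The libraries of the groups lay far apart, at 2.06 ± 2.18 against 142 ± 7.78 normalized CPM (counts scaled to the library size by edgeR, SD, n = 3 each), a log2 fold change of 6.04 ± 0.20 (SE, adjusted p = 3.99e-29). ANKRD37 overlaps UFSP2 on the other strand, so reads of that gene cannot be told apart where counting ignores the strand. HILPDA, a protein of lipid droplets that blocks their breakdown, had 148, 142 and 121 counts in shCtrl and 1809, 1805 and 2030 in sh#1, or 13.8-fold more (log2 3.79 ± 0.09, adjusted p = 2.06e-31). The other proteins of fat and glycogen storage also rose, with PLIN2 at log2 1.45, PPP1R3B at 2.07 and PPP1R3C at 2.76. CA9 and CA12, carbonic anhydrases of the cell surface, were not called, at log2 0.46 ± 0.20 and -0.13 ± 0.06.

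Among the secreted hypoxia genes, 7 of 8 rose. ADM encodes adrenomedullin, a peptide that widens vessels, and had 175, 194 and 203 counts in shCtrl and 1846, 1799 and 2581 in sh#1. Every sh#1 library was far above the controls, at a mean rise of 10.8-fold (log2 3.44 ± 0.09, adjusted p = 8.33e-29). ANGPTL4, an inhibitor of lipoprotein lipase, had 239, 226 and 246 counts in shCtrl and 1250, 1211 and 1383 in sh#1 (log2 2.44 ± 0.07). VEGFA, the main growth factor of vessels, rose from 46.5 ± 3.55 to 126 ± 2.63 CPM (log2 1.43 ± 0.10, adjusted p = 2.3e-17). IGFBP3, which binds insulin-like growth factors, rose by 2.37 on the log2 scale. EDN1, the vasoconstrictor endothelin-1, went from 2, 1 and 1 counts to 29, 20 and 24. The exception was LOXL2, a cross-linking enzyme of collagen, with 776, 760 and 777 counts in shCtrl and 523, 559 and 612 in sh#1 (log2 -0.44 ± 0.07, adjusted p = 1.34e-06).

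The feedback part of the pathway rose as well. BHLHE40 and BHLHE41, repressors that also act in the circadian clock, had 20, 27 and 20 and 9, 11 and 13 counts in shCtrl, against 181, 189 and 234 and 156, 150 and 176 in sh#1 (log2 3.17 ± 0.16 and 3.86 ± 0.19). The oxygen sensor EGLN1 rose by 0.93 and the histone demethylase KDM3A by 0.97 on the log2 scale. HIF1A itself, whose protein is set mainly by its breakdown, had 149, 107 and 135 counts in shCtrl and 116, 108 and 156 in sh#1, and these ranges overlapped (log2 -0.04 ± 0.13, adjusted p = 0.87). EPAS1, another HIF alpha subunit, was higher at log2 0.44 ± 0.12 (adjusted p = 0.00352). All 4 genes of cell death and mitophagy rose, by 2.95 for DDIT4, an inhibitor of the growth kinase mTORC1, and by 0.47, 0.79 and 0.80 for BNIP3, BNIP3L and FAM162A.

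The promoters of these genes are shown because many of them rose together. RefSeq windows (GRCh38.p14, 250 bases before to 50 after the start) were found for 8098 of the 9859 tested genes. The letters ACGTG, a core of the HIF response element, were on either strand in 18 of 29 hypoxia promoters (62.1%) and in 2275 of the 8098 (28.1%). The other form, GCGTG, was in 65.5% and 53.2%. The letters in the promoters of a list are fixed by the choice of its genes. Over all genes called higher the shares were 32.6% for ACGTG and 52.3% for GCGTG, and over those called lower 24.8% and 52.3%. GCGTG was also in 72.7% of the promoters of the ATF4 group and 66.7% of those of the unfolded protein group, both described below. Among the 15 largest rises, 7 of the 12 with a window held ACGTG. The first match on either strand in the 4 largest rises with one before the start follows, with up to 20 bases on each side, read in the direction of the gene. Capitals mark ACGTG or its reverse complement.
ANKRD37, chr4:185396659-185396703, plus strand: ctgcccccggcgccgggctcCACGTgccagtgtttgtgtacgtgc
BHLHE41, chr12:26125061-26125105, minus strand: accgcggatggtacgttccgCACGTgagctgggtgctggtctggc
BHLHE40, chr3:4979187-4979216, plus strand: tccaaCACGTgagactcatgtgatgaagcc
DDIT4, chr10:72273779-72273823, plus strand: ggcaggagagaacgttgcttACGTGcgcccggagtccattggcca
A match describes the letters of the window and is no measured binding site.

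**Figure D2:**
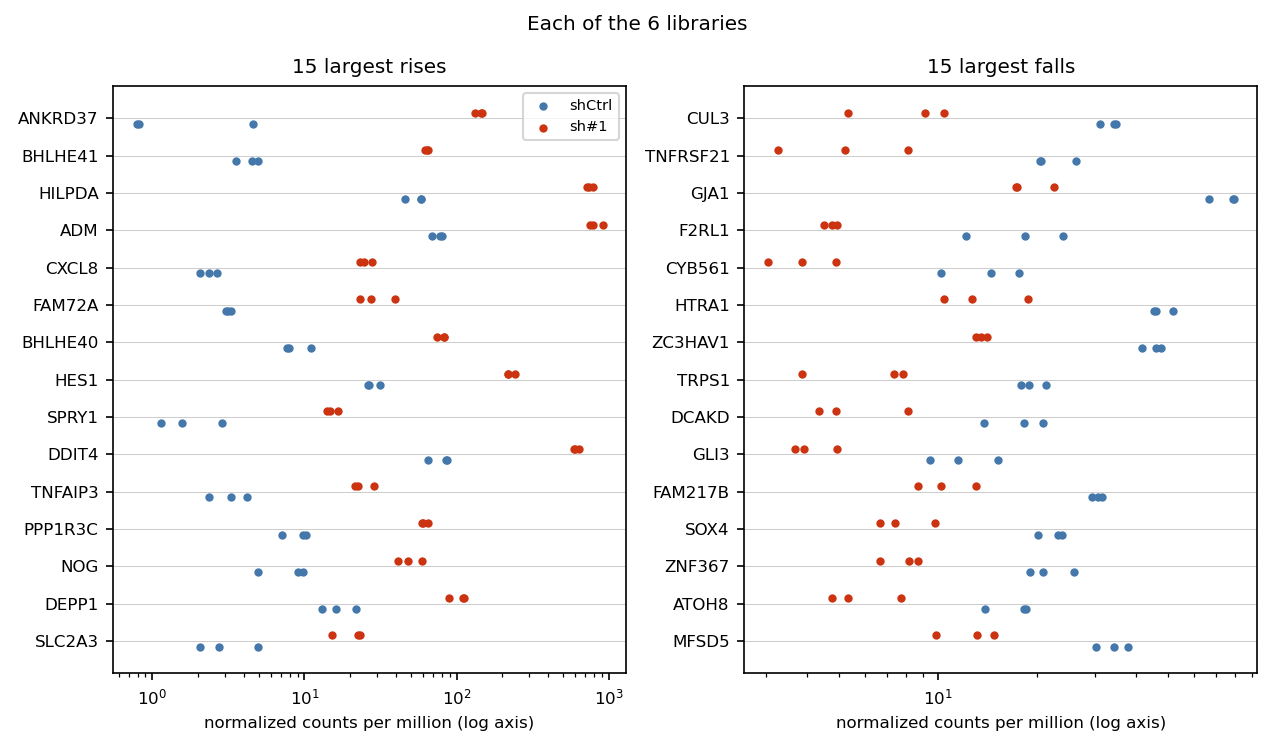
Normalized CPM (log axis) in each of the 3 shCtrl (blue) and 3 sh#1 (red) libraries for the 15 genes with the largest rise (left) and the 15 with the largest fall (right). The colours do not overlap in any of the 30 genes because the genes were chosen so; the libraries of a group lie close together for ADM and DDIT4 and spread most for genes with few counts, such as ANKRD37 in shCtrl.

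Glycolysis genes were called higher in part and none was called lower in the edgeR fit. Of 28 tested genes 13 were higher (46.4%, against 11.8% of all tested genes) and 8 had a negative log2 fold change, with a median of 0.19. The rises were large in enzymes that control entry and flux. HK2, which traps glucose as its phosphate, had 183, 176 and 239 counts in shCtrl and 666, 608 and 779 in sh#1 (log2 1.78 ± 0.08, adjusted p = 2.66e-25). PFKFB4, which sets the activator of phosphofructokinase, had 21, 24 and 27 against 151, 136 and 143 counts (log2 2.58 ± 0.17). The glucose transporters SLC2A1 and SLC2A3 rose by 0.85 and 2.62. The enzymes of the lower pathway moved less. ENO2 rose by 1.46 and PGK1 by 0.50, GAPDH was at log2 0.21 ± 0.05 (adjusted p = 0.00318), and LDHA, which makes lactate, was at 0.07 ± 0.06 with overlapping libraries (adjusted p = 0.419). Both PDK1, the kinase that shuts pyruvate dehydrogenase, and PDHA1, a subunit of that enzyme, were higher (log2 0.57 and 0.37). edgeR called 0 glycolysis genes lower, as did DESeq2, with 3 lower at an unadjusted p below 0.05, and the number was 0 to 2 over the alternatives.

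Most ATF4 targets were called higher, and 9 of 19 genes of the unfolded protein response were called lower. ATF4 is the transcription factor of the integrated stress response, which is translated when general protein synthesis is curbed and raises amino acid supply. The unfolded protein response of the endoplasmic reticulum shares 1 of its arms with ATF4 and raises chaperones through the others. Of 25 tested genes of the ATF4 group 21 were higher (84%, against 11.8% of all tested genes) and 0 lower, with a median log2 fold change of 0.84. In the edgeR test 0 of them were lower at an unadjusted p below 0.05. The lowest member, PSPH, was at -0.28 ± 0.23 (adjusted p = 0.434). ATF4 itself had 627, 715 and 652 counts in shCtrl and 1006, 1097 and 1473 in sh#1 (log2 0.84 ± 0.07, adjusted p = 1.3e-12). DDIT3, the factor CHOP, had 68, 59 and 70 counts against 240, 243 and 266 (log2 1.93 ± 0.12). SESN2, a leucine sensor that inhibits mTORC1, had 61, 66 and 69 against 347, 275 and 328 (log2 2.28 ± 0.12). ASNS, which makes asparagine, rose by 1.35, the cystine transporter SLC7A11 by 1.15 and the folate enzyme MTHFD2 by 0.91. The 4 transfer RNA synthetases, AARS1, GARS1, MARS1 and SARS1, rose by 0.49 to 0.62 on the log2 scale. DDIT4 and STC2 stand on both this list and the hypoxia list.

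In the unfolded protein group the 9 lower genes made up 47.4%, against 10.6% of all tested genes, while 1 was higher and 9 were not called. MANF, a secreted protein of the stressed reticulum, had 484, 490 and 495 counts in shCtrl and 322, 315 and 374 in sh#1. These ranges did not overlap (log2 -0.53 ± 0.08, adjusted p = 5.34e-07). PDIA3 and CRELD2, which act on disulfide bonds, were at -0.48 ± 0.09 and -0.64 ± 0.15. HSPA5, the main chaperone BiP, had 1919, 1816 and 1981 against 1566, 1479 and 1850 counts, a small fall of 0.22 on the log2 scale (adjusted p = 0.00367). CALR was at -0.48 ± 0.10, a call that was lost without the first sh#1 library. XBP1 was at -0.05 ± 0.18 and HERPUD1 at 0.27 ± 0.13, neither past the threshold. The riser was DNAJB9, at 0.85 ± 0.29.

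The letters TGATGNAA, the core of the element that ATF4 binds with C/EBP factors, were on either strand in 6 of 22 promoters of the ATF4 group (27.3%) and in 130 of 8098 (1.61%). Over all genes called higher the share was 3.36%, and over those called lower 1.43%. The windows of 3 genes of the group that were called higher and had a match before the start are shown. They are read in the direction of the gene, with the match or its reverse complement in capitals.
ASNS, chr7:97872449-97872496, minus strand: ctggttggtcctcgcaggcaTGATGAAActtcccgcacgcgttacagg
AARS1, chr16:70289666-70289713, minus strand: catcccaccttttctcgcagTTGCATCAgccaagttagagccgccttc
ATF3, chr1:212565196-212565243, plus strand: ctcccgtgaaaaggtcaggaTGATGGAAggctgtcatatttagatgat
These 3 genes were drawn only from those called higher, so their rise was fixed by the choice. ATF3 went from 2, 4 and 4 counts to 13, 15 and 12. The letters CCACG, part of the element of the reticulum stress factors, were in 15 of 18 unfolded protein promoters (83.3%) and in 51.4% of all. Read on the other strand, CCACG can overlap ACGTG and GCGTG.

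**Figure D3:**
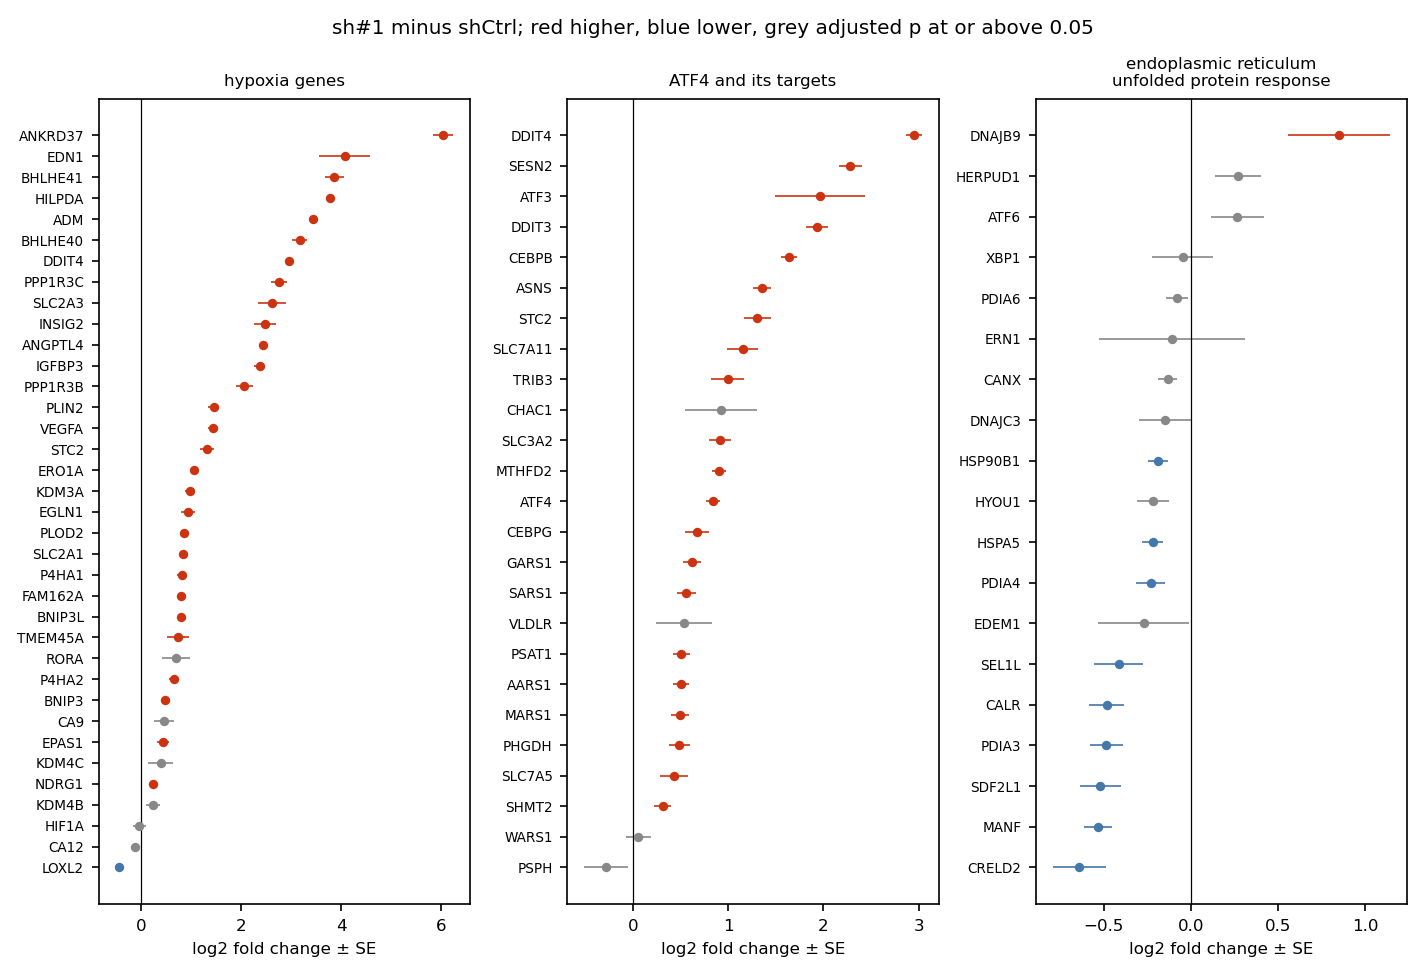
Log2 fold change of sh#1 minus shCtrl with its SE for the tested hypoxia genes (left, 1 gene not drawn), ATF4 and its targets (middle) and unfolded protein response gene (right); red marks genes called higher, blue lower and grey those not called. Most points of the left and middle panels lie right of 0 (30 of all 37 and 21 of 25 called higher), and 9 of 19 in the right panel are called lower.

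The genes of mitochondrial DNA fell in sum but not alike. Mitochondrial DNA encodes 13 protein subunits of the respiratory chain, all transcribed from long precursors that are cut to single messengers, and the remaining subunits come from nuclear genes. The 13 genes held 9.36%, 9.23% and 9.24% of all counts in the shCtrl libraries and 6.49%, 6.48% and 6.35% in the sh#1 libraries. The groups did not overlap, with means of 9.28% ± 0.0711 and 6.44% ± 0.0787 (SD, n = 3 each), a difference of -2.84 percentage points. The two-sided exact permutation test gave p = 0.1, the smallest value that 3 against 3 libraries allow. The share on the 7 genes of complex I went from 4.59% to 3.22% and that on the 6 genes of complexes III to V from 4.69% to 3.22%.

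Gene by gene, 8 of the 13 fell (61.5%, against 10.6% of all tested genes) and 2 rose (15.4%, against 11.8%). MT-ND2 had 22933, 19292 and 20897 counts in shCtrl and 9788, 9842 and 10666 in sh#1, so every sh#1 library was well under every control library (log2 -1.05 ± 0.06, adjusted p = 4.45e-20). MT-ND1 and MT-ND3 were at -0.84 ± 0.05 each, MT-CO3 at -0.74 ± 0.05 and MT-ATP6 at -0.64 ± 0.05. MT-ATP8, which shares bases with MT-ATP6, was at -1.15 ± 0.20 (adjusted p = 0.0075), with 7202 counts in the first shCtrl library and 4318 and 4882 in the others. MT-CYB and MT-CO2 fell less, by 0.23 and 0.18, and the call of MT-CO2 was lost when library 2 or 3 of shCtrl, or library 2 or 3 of sh#1, was left out. MT-ND4, MT-ND4L and MT-ND5 were at 0.08 ± 0.05, 0.15 ± 0.06 and -0.21 ± 0.15. MT-CO1 had 2971, 2914 and 3112 counts against 3502, 3334 and 4136 (log2 0.29 ± 0.05, adjusted p = 4.11e-05), and MT-ND6, the gene on the other strand, rose by 0.32 ± 0.06. Nuclear genome copies of mitochondrial genes can share reads with them, so these values are uncertain to that extent.

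**Figure D4:**
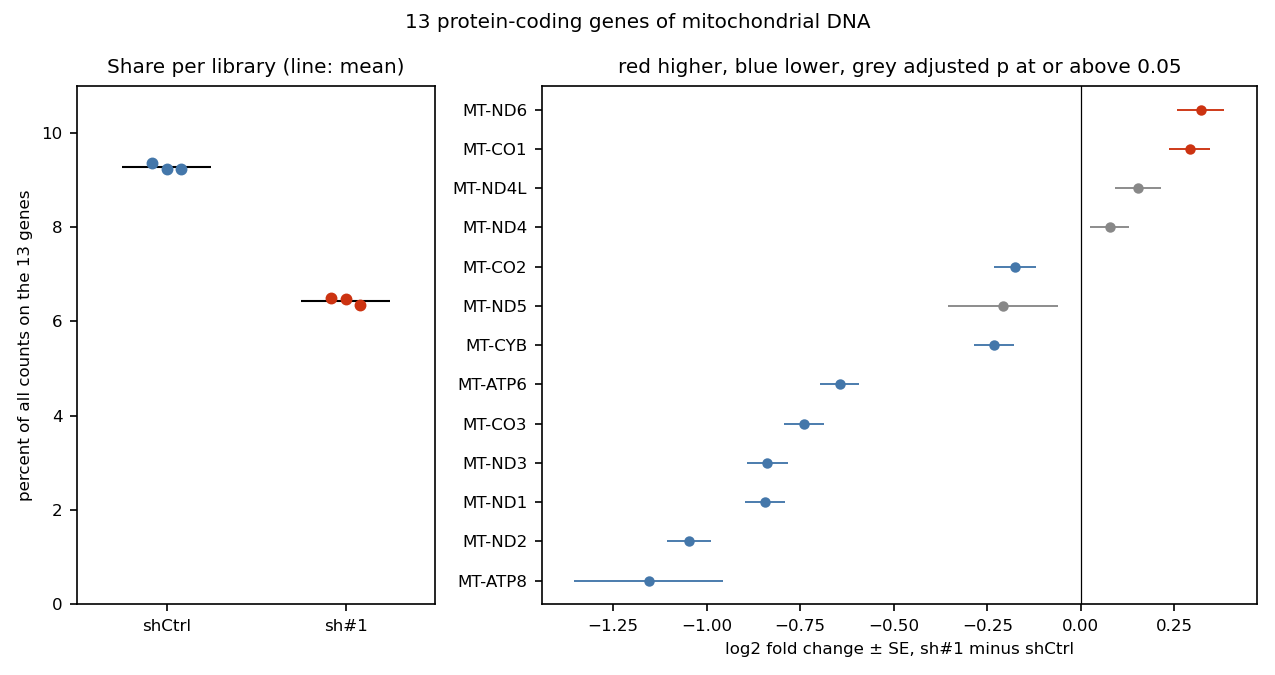
Left, percent of all counts on the 13 protein genes of mitochondrial DNA in each library (points) with the group mean (line), at 9.23% to 9.36% in shCtrl and 6.35% to 6.49% in sh#1. Right, log2 fold change of each gene with its SE, from MT-ATP8 at -1.15 to MT-ND6 at 0.32; red is higher, blue lower and grey not called.

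Some nuclear genes of oxidative phosphorylation were higher in sh#1. Of 79 tested genes 28 were higher (35.4%, against 11.8% of all tested genes), 2 lower (2.53%, against 10.6%) and 49 not called. Their median log2 fold change was small, at 0.14. Without the first shCtrl library 18 were called higher. Complex IV had the largest share of rises, 7 of 11 genes, and complex I the smallest of the complexes with more than 4 genes, 9 of 37. The rises were small: NDUFA1 had 645, 728 and 738 counts in shCtrl and 787, 828 and 1151 in sh#1 (log2 0.39 ± 0.07), COX7C was at 0.34 ± 0.06, UQCRC2 at 0.36 ± 0.07 and ATP5PO at 0.33 ± 0.07.

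NDUFC2, a subunit of complex I (ENSG00000151366, chr11:78068297-78079862, minus strand), was the clear exception. It had 452, 505 and 494 counts in shCtrl and 262, 249 and 262 in sh#1. The mean went from 191 ± 14.8 to 103 ± 8.97 CPM, 1.87-fold lower (log2 -0.90 ± 0.09, adjusted p = 1.57e-11). NDUFS8, the other lower gene, was at -0.20 ± 0.08 (adjusted p = 0.0459), and its call was lost under 8 of 15 alternatives.

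Import genes bring nuclear-encoded proteins through the outer membrane (TOM complex) and the inner membrane (TIM complexes). Of 31 tested genes 5 were higher (16.1%) and 2 lower (6.45%), close to the shares over all genes. TIMM21, which links the inner membrane translocase to the outer one (chr18:74148523-74160531, plus strand), had 53, 45 and 47 counts in shCtrl and 18, 27 and 35 in sh#1. These ranges did not overlap, although the sh#1 libraries were spread (log2 -0.85 ± 0.22, adjusted p = 0.00327), and the call was lost with DESeq2. TIMM22, of the carrier translocase, was at -0.42 ± 0.13, a call lost with DESeq2 and without library 2 or 3 of shCtrl, so that DESeq2 called 0 import genes lower. The outer membrane receptor TOMM20 had 318, 332 and 329 counts against 478, 423 and 527 (log2 0.55 ± 0.08). The chaperone HSPA9, which pulls proteins into the matrix, was at 0.42 ± 0.07. Among 27 tested genes that copy, transcribe and process mitochondrial DNA or its RNA, 3 rose (11.1%) and 2 fell (7.41%), at or under the shares over all tested genes, and with DESeq2 0 fell. SLIRP and LRPPRC, which hold mitochondrial messengers together as a complex, rose by 0.38 and 0.46, and the helicase TWNK was at -0.64 ± 0.22. Of the 23 citric acid cycle genes 5 rose (21.7%, against 11.8% of all tested genes) and 0 fell (against 10.6%) in the edgeR fit. At an unadjusted p below 0.05 in edgeR 10 rose and 0 fell, and DESeq2 called 2 higher and 0 lower.

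Ribosomal protein genes rose together by a small amount. Of 79 tested genes of the cytosolic ribosome 61 were higher (77.2%, against 11.8% of all tested genes) and 0 lower. All 79 had a log2 fold change above 0 in this fit, with a median of 0.27. At an unadjusted p below 0.05, 69 were higher and 0 lower in edgeR, and DESeq2 also called 0 lower. They held 23.1% ± 0.299 of the counts in shCtrl and 26.1% ± 0.562 in sh#1, with the exact permutation p of 0.1 again the smallest possible. RPS12 had 12443, 12173 and 12718 counts in shCtrl and 15387, 16268 and 21613 in sh#1, the highest in the deepest library (log2 0.51 ± 0.06, adjusted p = 1.49e-10). RPL21 and RPL9 were at 0.47 ± 0.06 and 0.44 ± 0.06. Many ribosomal genes have near-identical copies elsewhere in the genome, which can share their reads. Transcript length moved with the result: genes other than ribosomal ones had a median log2 fold change of 0.07 when the transcript was under 1000 bases and -0.06 at 4000 bases and over. The 4 ribosomal genes with a transcript of 4000 bases and over had a median of 0.23. The part of length in these rises was not tested.

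Part of the genes of protein folding and breakdown in the cytosol were higher. The proteasome, which degrades ubiquitin-marked proteins, had 16 of 37 genes higher (43.2%, against 11.8% of all tested genes), 1 lower and 20 not called. PSMB7 had 516, 541 and 534 counts against 688, 713 and 865 (log2 0.51 ± 0.07). Of 32 tested heat shock and chaperonin genes 19 were higher (59.4%, against the same 11.8%) and 1 lower. HSP90AA1, the stress-induced form of HSP90, had 9004, 8586 and 9134 counts in shCtrl and 11426, 11915 and 16161 in sh#1 (log2 0.56 ± 0.06, adjusted p = 9.7e-12). TCP1 and CCT8, subunits of the chaperonin that folds actin and tubulin, rose by 0.53 and 0.49. The inducible HSPA1B rose by 1.47, although it is nearly identical to HSPA1A and the reads of the pair cannot be divided with certainty. DNAJB1, a cofactor of that chaperone, was the gene that fell, with 130, 151 and 122 counts against 80, 82 and 111 (log2 -0.56 ± 0.13, adjusted p = 0.00111).

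Genes of the NF-kB pathway and immediate early factors rose. NF-kB is held in the cytoplasm by inhibitors of the IkB family, which it induces in turn. Of 25 tested genes 15 were higher (60%, against 11.8% of all tested genes) and 1 lower. The inhibitors NFKBIA and TNFAIP3 were both among them: NFKBIA had 209, 224 and 246 counts against 404, 455 and 505 (log2 1.01 ± 0.09), and TNFAIP3 had 6, 8 and 11 against 55, 66 and 61 (log2 2.85 ± 0.27). BIRC3, an inhibitor of apoptosis, rose from 86, 104 and 81 to 393, 361 and 467 counts. The chemokine CXCL8 had 6, 5 and 7 counts in shCtrl and 60, 64 and 66 in sh#1, 10.4-fold more (adjusted p = 5.06e-15). RELA and NFKB1, the subunits of the classical factor, were at 0.24 ± 0.10 and 0.16 ± 0.14 and not called. CSF1 was the lower gene (log2 -1.18 ± 0.35), a call lost with DESeq2 and without shCtrl library 2 or sh#1 library 3. Of 29 tested genes of the AP-1, EGR and MYC list 17 were higher (58.6%, against 11.8%) and 5 lower (17.2%, against 10.6% of all tested genes). JUN, a subunit of the AP-1 dimer, had 793, 726 and 807 counts against 1612, 1500 and 1789. DUSP1, a phosphatase of MAP kinases, rose by 2.18 and KLF6 by 1.30. Within the MYC network MXI1, an antagonist of MYC, rose by 1.77, MYC by 1.08 and the antagonist MXD4 was at -1.05 ± 0.16.

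**Figure D5:**
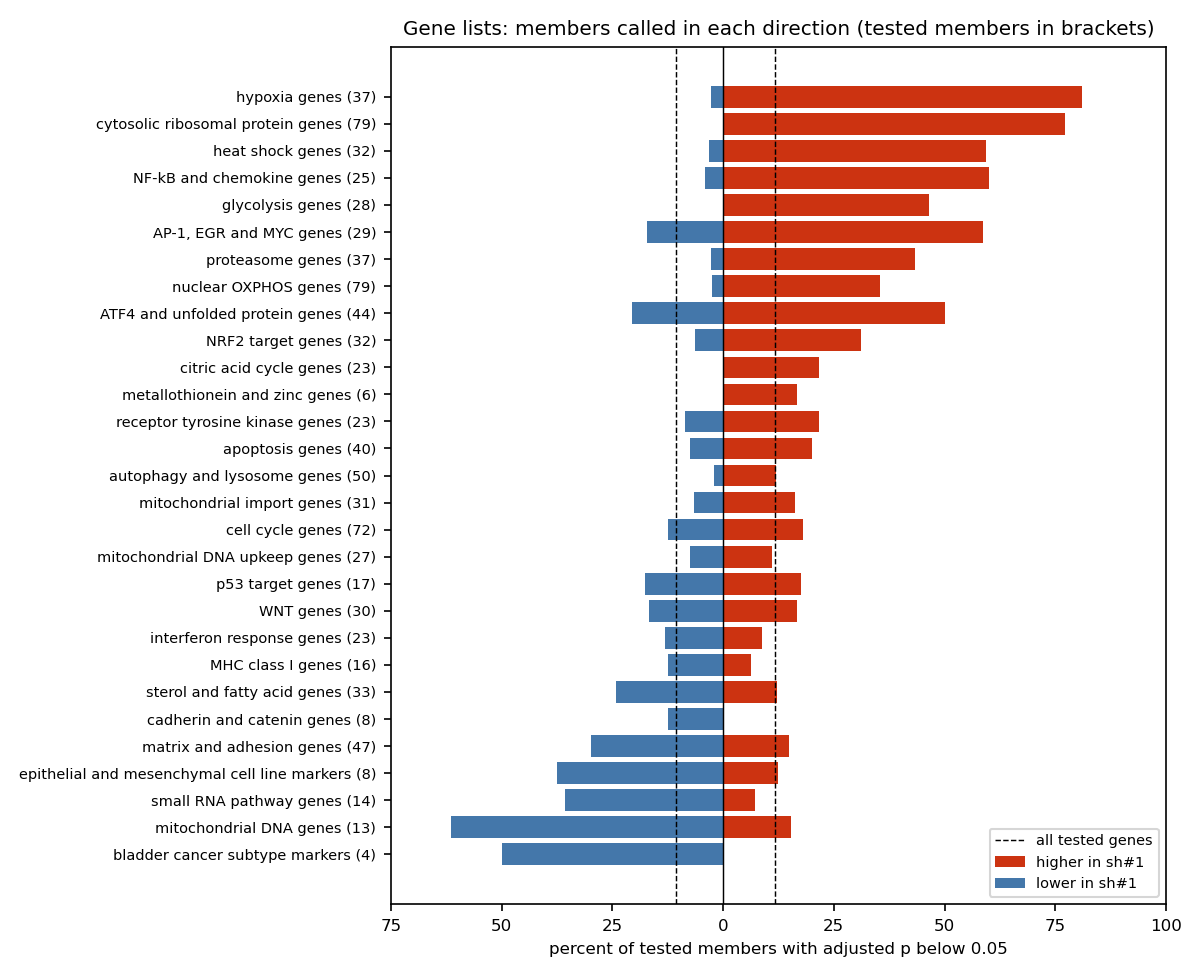
Percent of the tested members of each gene list called higher (red, to the right) or lower (blue, to the left) in sh#1 at an adjusted p below 0.05, with the number of tested members in brackets; dashed lines mark the shares over all tested genes, 11.8% and 10.6%. Hypoxia and ribosomal protein genes have the longest red bars, and mitochondrial DNA genes the longest blue bar; lists of under 10 genes rest on few calls.

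WNT genes, named by the study through WNT7B, did not move in 1 direction. WNT ligands bind Frizzled receptors and, in the canonical branch, keep beta-catenin from being degraded; the catenins also tie cadherins to actin. Of 66 listed genes 30 were tested, with 5 higher and 5 lower (16.7% each, against 11.8% and 10.6% of all tested genes). With DESeq2 4 were higher and 2 lower. WNT7B (chr22:45920366-45977162, minus strand) had 111, 94 and 105 counts in shCtrl and 44, 41 and 51 in sh#1, so that the groups were clearly apart (log2 -1.18 ± 0.17, adjusted p = 1.4e-07). WNT5B, a ligand of the non-canonical branch, had 305, 295 and 331 against 184, 161 and 170 (log2 -0.84 ± 0.10). The receptor FZD2 was at -0.75 ± 0.22 and lost its call with DESeq2 and without the first shCtrl library. The secreted inhibitor DKK1 rose from 9, 10 and 16 to 22, 23 and 36 counts. CTNNB1, beta-catenin, was at 0.11 ± 0.08 and not called. Among common targets of the pathway CCND1 rose by 0.38 and AXIN2 was too low to be tested.

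Other adhesion genes fell more often than they rose. Of 31 listed cadherins and catenins 8 were tested, and only CDH2 (N-cadherin) was called, with 106, 99 and 99 counts in shCtrl and 74, 57 and 72 in sh#1 (log2 -0.58 ± 0.14, adjusted p = 0.00207). In the matrix and adhesion list 14 of 47 genes were lower (29.8%, against 10.6% of all tested genes) and 7 higher (14.9%, against 11.8%). FN1, fibronectin, had 27, 20 and 32 counts against 6, 7 and 14 (log2 -1.53 ± 0.32). SPARC, TNC, COL4A2 and COL6A2 were lower, at log2 fold changes between -0.90 and -0.65. Of 8 integrins 3 were lower (37.5%, against 10.6% of all tested genes). These included the laminin receptor subunits ITGA3 (452, 504 and 522 against 342, 343 and 422) and ITGA6. Among the higher genes the matricellular proteins CCN1 and CCN2, early targets of many stimuli, rose by 1.70 and 1.41, and PLAUR, the urokinase receptor, by 1.35, while urokinase itself, PLAU, was at -0.47 ± 0.06. Of 5 mesenchymal markers of the line 3 were lower, CDH2, FN1 and AXL, and 0 higher. AXL had 649, 664 and 682 counts in shCtrl and 513, 459 and 438 in sh#1. The 2 not called, ZEB1 and VIM, were at 0.07 ± 0.10 and 0.08 ± 0.06. The fibroblast marker sum given above, which is mostly THY1, was also lower in sh#1. Its part in these falls was not tested. The bladder cancer subtype markers were mostly too low to be tested, with 4 of 30 tested. CD44, a basal marker, was at -0.18 ± 0.06 (984, 992 and 1042 against 817, 796 and 1046 counts), and L1CAM at -0.51 ± 0.19. Both calls were lost with DESeq2, without the low-count filter and on leaving out library 2 or 3 of shCtrl or library 1 or 2 of sh#1.

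The cell cycle list had 13 of 72 genes higher (18.1%, against 11.8% of all tested genes) and 9 lower (12.5%, against 10.6%). With DESeq2 6 were higher and 6 lower. The proliferation marker MKI67 had 844, 610 and 728 counts in shCtrl and 660, 667 and 882 in sh#1, with overlapping ranges (log2 0.02 ± 0.08, adjusted p = 0.895). Of 5 tested inhibitors of cyclin-dependent kinases 4 were higher, with CDKN1A (p21) at 101, 118 and 120 against 207, 199 and 209 counts and CDKN1B (p27) at log2 0.62 ± 0.11. RRM2, which makes deoxynucleotides, rose by 1.03, whereas PCNA, the clamp of DNA polymerase, had 505, 479 and 525 counts against 342, 333 and 351 (log2 -0.55 ± 0.08). Of 40 apoptosis genes 8 were higher (20%) and 3 lower (7.5%), or 5 and 3 with DESeq2, with MCL1 and BCL2A1, which protect against cell death, up by 1.32 and 1.97. Sterol and fatty acid genes had 8 of 33 lower (24.2%) and 4 higher (12.1%), or 5 and 1 with DESeq2. ELOVL6, which lengthens fatty acids, had 158, 117 and 115 counts against 48, 56 and 64 (log2 -1.21 ± 0.15). In the NRF2 list 10 of 32 were higher (31.2%, against 11.8%), 6 with DESeq2, and 2 were lower (6.25%, against 10.6%). The log2 fold change was above 0 in 18 of the 32 and below 0 in 14. The lower genes were CUL3 and KEAP1, and the call of KEAP1 was lost under 7 of 15 alternatives. MAFF, a partner of NRF2, rose by 2.15 and the ferritin light chain FTL by 0.61. The lysosomal protease CTSB, the only gene of 50 autophagy and lysosome genes called lower in this fit, had 1443, 1387 and 1553 counts against 727, 734 and 909 (log2 -0.88 ± 0.06, adjusted p = 1.07e-17). Interferon response genes gave 2 higher (8.7%) and 3 lower (13%) of 23, close to the shares over all tested genes, and 0 in either direction with DESeq2. MHC class I genes gave 1 and 2 of 16 (6.25% and 12.5%), or 0 and 2 with DESeq2. The p53 targets gave 3 higher and 3 lower of 17 (17.6% each, against 11.8% and 10.6% of all tested genes), or 3 and 1 with DESeq2. Receptor tyrosine kinase genes gave 5 and 2 of 23 (21.7% and 8.7%), and metallothionein and zinc genes 1 and 0 of 6 (16.7% and 0%).

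Further genes were among the 15 largest rises. HES1, the repressor downstream of Notch, had 66, 76 and 70 counts in shCtrl and 533, 559 and 617 in sh#1 (log2 3.02 ± 0.10, adjusted p = 2.06e-31). SPRY1, a brake on growth factor signalling, had 4, 7 and 3 against 36, 38 and 40. NOG, which blocks bone morphogenetic proteins, had 23, 24 and 13 against 100, 111 and 169. FAM72A rose from 8, 8 and 8 to 67, 90 and 66 counts, but it has near-identical copies on chromosome 1 and overlaps SRGAP2 on the other strand, so the gene of origin is uncertain.

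The largest falls were smaller in size. CUL3, the scaffold of ubiquitin ligases that among others degrade NRF2, had 87, 76 and 91 counts in shCtrl and 13, 24 and 26 in sh#1, 4-fold lower (log2 -2.0 ± 0.21, adjusted p = 2.01e-11). TNFRSF21, death receptor 6, had 67, 50 and 54 against 8, 12 and 23. GJA1, the gap junction protein connexin 43, had 169, 193 and 208 against 55, 40 and 49 (log2 -1.98 ± 0.14). The secreted protease HTRA1 was at -1.76 ± 0.17 and ZC3HAV1, an antiviral RNA-binding protein, at -1.73 ± 0.16. The transcription factors TRPS1, GLI3, SOX4 and ATOH8 were lower, at log2 fold changes between -1.63 and -1.48. F2RL1, CYB561, DCAKD, FAM217B, ZNF367 and MFSD5 made up the remaining falls, between -1.93 and -1.45, and the call of CYB561 was lost with DESeq2.

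The hairpins of both groups pass through the small RNA pathway, and some genes of that pathway were lower in sh#1. Of 14 tested genes 5 were lower (35.7%, against 10.6% of all tested genes) and 1 higher, or 3 and 1 with DESeq2. TNRC6A, the GW182 protein that Argonaute uses to silence targets, had 153, 146 and 169 counts in shCtrl and 61, 58 and 74 in sh#1. The groups were far apart (log2 -1.27 ± 0.13, adjusted p = 4.59e-11). Its paralog TNRC6C had 61, 62 and 66 against 22, 27 and 35, and AGO2, the Argonaute that cleaves its targets, 180, 212 and 224 against 151, 126 and 182. The call of AGO2 held in all 15 alternatives, and that of DICER1 (-0.61 ± 0.19) was lost with DESeq2 and without the first shCtrl, first sh#1 or second sh#1 library. RAN, which also serves nuclear transport in general, was the higher gene. In sh#2 minus shCtrl TNRC6A, TNRC6C and AGO2 were at log2 -1.32, -1.20 and -0.52. None of the 14 genes was called different between sh#1 and sh#2.

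Genes whose 3′ UTR held the match to the seed of the guide, the letters GTACAGT, were described as a group without a test. Of 9739 tested genes with an annotated 3′ UTR 1336 held it. Their median log2 fold change was -0.05 and 13.4% were called lower, against 10.2% of the 8403 genes without it. In sh#2 minus shCtrl, from cells without this guide and with the same control libraries, the median of the same 1336 genes was -0.07. The 3′ UTRs with the match were longer, with a median of 3232.5 against 1182 bases, and length moved with the result. In genes with a 3′ UTR of 4000 bases and over, 12.8% with the match and 15.5% without it were called lower. Between 2000 and 3999 bases the shares were 14.3% and 13.1%, and between 500 and 999 bases, with 90 genes holding the match, 17.8% and 9.06%. Between 1000 and 1999 bases they were 11.9% and 10.7%, and under 500 bases, with 31 genes holding the match, 9.68% and 5.9%. The share called lower was thus higher with the match in every length class but the longest, whereas the medians were mixed. From the shortest class to the longest, the median log2 fold changes with the match were 0.07, -0.07, 0.02, -0.11 and -0.03. Without it they were 0.06, 0.00, -0.03, -0.04 and -0.06. Genes with the match to the sh#2 seed, a guide that sh#1 cells lack, were called lower in 11.9%, against 9.86% without that match. Of the 15 largest falls 3 held the sh#1 match, ZC3HAV1, DCAKD and ZNF367, and of the 15 largest rises 1, BHLHE40, beside 1336 of all 9739. The sh#2 match was in 8 of the same 15 falls and 1 of the 15 rises, beside 3585 of all 9739. Among the small RNA pathway genes named above, TNRC6A, TNRC6C and AGO2 held the sh#1 match, and DICER1 and RAN did not. The sh#2 match was in TNRC6A, AGO2, DICER1 and RAN and not in TNRC6C. The 3′ UTR of AGO2 has 11888 bases.

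Compared directly with the cells of the other hairpin, sh#1 cells had 1100 genes higher (11.2%) and 1331 lower (13.5%) of the same 9859. This comparison shares the sh#1 libraries with the one against shCtrl, so the values are given side by side for single genes. HES1 had 290, 271 and 287 counts in the sh#2 libraries and was higher in sh#1 than in sh#2 by 0.74 on the log2 scale (adjusted p = 1.53e-10). GJA1 had 110, 120 and 113 counts in sh#2 and was lower in sh#1, with a log2 difference of -1.52 (adjusted p = 9.09e-12). For ANKRD37, with 320, 302 and 277 counts in sh#2, the difference of sh#1 minus sh#2 was -0.01 (adjusted p = 0.942). NDUFC2, at 110, 154 and 133 counts in sh#2, was higher in sh#1 than in sh#2 by 0.70 (adjusted p = 1.78e-06). The difference for TIMM21, 0.59, and that for WNT7B, 0.48, were not past the threshold (adjusted p = 0.122 and 0.098).

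Some genes lay on opposite sides of shCtrl under the hairpins. TGFBI, a matrix protein induced by TGF-beta, had 267, 303 and 265 counts in shCtrl, 157, 154 and 201 in sh#1 and 367, 400 and 376 in sh#2, so sh#1 was under and sh#2 above the control. The log2 difference of sh#1 minus sh#2 was -1.43 (adjusted p = 1.97e-18). CTSB, PLAU, SCD and DNAJB1 were likewise lower in sh#1 than in sh#2, with log2 differences of -1.23, -0.73, -1.04 and -1.83. Of the 13 mitochondrial DNA genes 3 were higher in sh#1 than in sh#2 and 6 lower. MT-CO3 and MT-ATP6 were higher, by 0.53 and 0.38 on the log2 scale (adjusted p = 1.78e-11 and 7.82e-08), whereas the differences of MT-CO1, MT-ND6, MT-CYB and MT-ND1 were -0.63, -0.49, -0.37 and -0.25. Of the 25 genes of the ATF4 group 9 were higher in sh#1 than in sh#2 and 4 lower. DDIT4, SESN2, CEBPB and ASNS were at 0.36 to 0.63 and DDIT3 at -0.77. Of the 19 unfolded protein genes 0 were higher in sh#1 than in sh#2 and 11 lower. The numbers were 0 and 77 for the 79 ribosomal protein genes and 1 and 18 for the 28 glycolysis genes. Of the 37 hypoxia genes 4 were higher in sh#1 than in sh#2 and 24 lower, with NDRG1, ERO1A and FAM162A at -1.60 to -1.35 and HILPDA at 0.27. HMOX1, which degrades heme, had 87, 81 and 86 counts in shCtrl, 146, 146 and 158 in sh#1 and 1210, 1077 and 970 in sh#2; the log2 difference of sh#1 minus sh#2 was -3.12.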

How the data were processed

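RNA-seq counts of 6 cultured UM-UC-3 libraries (3 shCtrl, 3 sh#1) were analysed, with 3 sh#2 libraries in the same fit. The authors deposited raw read counts per gene. According to the methods of the study, single reads of 75 bases were trimmed in CLC Genomics Workbench and mapped to hg38 with RaNAseq, and the counting tool, strand setting and annotation are not given in the sources used here. Of 21479 listed genes 13 are not analysed here, and some others enter counts only and are not reported singly. Tumor tables were not used.

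The counts were fitted with edgeR 4.0.16 in R 4.3.3 (limma 3.58.1): TMM normalization, filterByExpr, a robust quasi-likelihood fit of 3 groups and the contrast of sh#1 minus shCtrl. Adjusted p-values are Benjamini-Hochberg over all 9859 tested genes. Normalized CPM uses the TMM sizes. SE is the log2 fold change divided by the square root of F. Shares of counts were compared with two-sided exact permutation tests, which cover 20 arrangements. Totals of 2273182 to 2777019 counts limit genes with few counts, and counting limits cover counting error only.

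The members and gene lists were chosen with earlier results of these data known, so list counts are descriptions. The genes named are those the study names, the 15 largest rises and 15 largest falls (adjusted p below 0.05, mean of at least 20 counts, no overlap between groups), the 5 with the most counts in each direction, up to 4 called genes in each direction per list by p, and 5 in each direction that also differ from sh#2. Other list members, as HIF1A, VEGFA, CA9, HSPA5, MKI67 and JUN, were added after their values were seen. Gene positions, 3′ UTRs and transcript lengths come from GENCODE v44 (hg38), and promoters and microRNAs from RefSeq (GRCh38.p14). Other settings tried were a replicate block, each library left out in turn, the 6 libraries fitted alone, DESeq2 1.42.0, scaling by the upper quartile, all genes without the filter, and a stricter minimum of 10 counts per library.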

Additional observations from a re-analysis of the deposited data

How the results depend on the processing

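DESeq2 called 692 genes higher and 474 lower, 82 of the latter by more than 1 on the log2 scale. With at least 10 counts in every library, 117 genes were higher and 77 lower by more than 1, among 8301 tested. With TMM effective library sizes as the denominator, the difference in the share on mitochondrial DNA genes was -2.35 percentage points. Upper quartile normalization moved the share of higher genes among all calls from 52.6% to 47.6%. Leaving out each library gave 909 to 1198 higher and 798 to 1064 lower genes. The titles of same-numbered shCtrl and sh#1 libraries share only a number. The correlations of their deviations from the group means were 0.0148, 0.0242 and 0.0465. Counting error adds to these deviations, so low correlations cannot exclude a shared batch. The replicate block gave 1186 higher and 1070 lower genes. Of 178 named genes that were called, 144 were called in every alternative that tested them, 34 lost the call in at least 1 of the 15 alternatives and 0 changed direction. Genes with few counts, CDH11 among them, are limited by the depth.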
